A study of Homo sapiens with 4 samples.

Results

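HLA-B, HLA-C, HLA-E, HLA-F, B2M, TAP1, TAP2, NLRC5 and ERAP1 are 9 genes of MHC class I antigen presentation, and their mRNA was compared between ATAD3A KO and parental HN12 cells. They were chosen by symbol from the 26726 genes listed in the read counts. All 9 passed the filter on low counts, which kept 15104 genes. HN12 is a cell line of head and neck squamous cell carcinoma (HNSCC). The 2 KO libraries (KO1 and KO2) came from HN12 cells in which ATAD3A, the gene of an ATPase of the mitochondrial inner membrane, had been cut with CRISPR/Cas9. The 2 WT libraries (WT1 and WT2) came from the parental HN12 cells. Each library was made from its own culture, both groups were grown in medium with serum and antibiotics, and the labels name no further allele, agent or time point. The KO cells had been screened as clones, and which clone gave which library is not given in the sources used here, so loss of ATAD3A and a property of a clone cannot be told apart. Reads counted on genes came to 18943547 in KO1, 16805766 in KO2, 15173766 in WT1 and 13569971 in WT2.

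The targeted gene followed the labels. ATAD3A mRNA stood at 38.0 and 29.9 CPM (read counts scaled to the library's size after edgeR's TMM factors) in KO1 and KO2 and at 116 and 106 CPM in WT1 and WT2. It fell by 1.70 on the log2 scale (SE 0.091, edgeR's quasi-likelihood test, adjusted p = 1.53e-17 by Benjamini-Hochberg over the 15104 genes). ATAD3A has close copies in the genome, and how reads shared with them were counted is not given. Its family member ATAD3B was at 157 and 142 CPM in KO1 and KO2 and at 72.3 and 81.0 CPM in WT1 and WT2. That was a rise of 0.96 on the log2 scale (edgeR adjusted p = 1.72e-13). Whether shared reads had a part in either value was not tested. All 10 squamous epithelial markers on the list used were expressed, the most abundant per length being KRT5, a basal keratin, in the KO libraries and SFN in the WT libraries. Their summed level was 2223 and 2196 RPKM (reads scaled to gene length and library total) in KO1 and KO2 against 1005 and 1020 RPKM in WT1 and WT2. Markers of leukocytes, whose class I levels are high, were near the floor. Of 10 leukocyte markers, 7 were listed and 2 passed the filter, CD14 (log2 fold change -0.09, edgeR adjusted p = 0.878) and ITGAM (-0.95, adjusted p = 0.309). The listed ones summed to 53 and 80 counts in KO1 and KO2 and to 63 and 66 counts in WT1 and WT2, mostly from CD14, while CD68 and NKG7 had at most 3 counts in each library. Fibroblast markers summed to between 1.78 and 2.63 RPKM and endothelial markers to between 0.207 and 0.409 RPKM over the 4 libraries. In such bulk samples fewer cells that express a gene and less RNA per cell cannot be told apart.

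MHC class I molecules show peptides from inside the cell to CD8+ T cells. Each is a heavy chain from the HLA cluster on the short arm of chromosome 6 joined to beta-2 microglobulin, the product of B2M on chromosome 15, without which most heavy chains do not reach the surface. Peptides cut by the proteasome are pumped into the endoplasmic reticulum by the TAP1-TAP2 transporter, are trimmed there by aminopeptidases such as ERAP1 and are loaded with help from tapasin and chaperones. Interferon and NF-kB signalling raise these genes, and NLRC5 acts as a transactivator of class I genes through a conserved promoter module. Loss of class I is a known route by which carcinomas of the head and neck evade T cells.

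RefSeq promoter windows on GRCh38.p14 were matched for 7 of the 9 members, and not for HLA-E and NLRC5. Those of B2M, HLA-B and HLA-C, which rose, and of TAP2, which fell, are shown with TAP1 beside TAP2, so that they can be read against each other. For each, the 250 bases before the annotated start were read 5′ to 3′ on the strand of the gene. TAP1 has 2 such windows, and the upstream one is printed. This is reference sequence and not that of HN12 cells, which matters for genes as variable as HLA-B and HLA-C. Capitals mark matches, on either strand, to CCAAT (the box bound by NF-Y), TGACGC (the core of a CREB-type site, as in the X2 box), a pair of GAAA copies with 2 bases between them (the core of an interferon response element, ISRE), TTCNNNGAA (a STAT site core) and the NF-kB consensus.
B2M, chr15:44711267-44711516, plus strand: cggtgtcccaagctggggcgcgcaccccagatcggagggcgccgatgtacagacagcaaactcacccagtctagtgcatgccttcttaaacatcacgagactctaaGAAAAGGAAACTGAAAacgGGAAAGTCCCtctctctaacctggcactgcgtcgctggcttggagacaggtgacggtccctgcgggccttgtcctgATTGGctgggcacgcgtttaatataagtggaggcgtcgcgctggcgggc
HLA-B, chr6:31357180-31357429, minus strand: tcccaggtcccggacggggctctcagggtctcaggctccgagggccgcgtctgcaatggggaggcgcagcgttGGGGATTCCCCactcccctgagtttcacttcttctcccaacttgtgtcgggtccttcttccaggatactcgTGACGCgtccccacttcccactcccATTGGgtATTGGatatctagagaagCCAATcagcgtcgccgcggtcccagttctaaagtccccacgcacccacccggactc
HLA-C, chr6:31272093-31272342, minus strand: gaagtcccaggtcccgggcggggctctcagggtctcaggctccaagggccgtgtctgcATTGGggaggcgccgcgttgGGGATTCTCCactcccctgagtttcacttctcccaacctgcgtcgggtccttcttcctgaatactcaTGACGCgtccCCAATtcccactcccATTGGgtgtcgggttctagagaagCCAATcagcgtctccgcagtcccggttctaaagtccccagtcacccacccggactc
TAP1, chr6:32853705-32853954, minus strand: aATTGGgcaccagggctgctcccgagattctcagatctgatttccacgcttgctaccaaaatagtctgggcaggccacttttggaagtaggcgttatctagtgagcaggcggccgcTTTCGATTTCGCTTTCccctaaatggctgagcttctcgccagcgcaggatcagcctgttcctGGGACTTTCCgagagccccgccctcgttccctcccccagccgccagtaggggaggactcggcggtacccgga
TAP2, chr6:32838740-32838989, minus strand: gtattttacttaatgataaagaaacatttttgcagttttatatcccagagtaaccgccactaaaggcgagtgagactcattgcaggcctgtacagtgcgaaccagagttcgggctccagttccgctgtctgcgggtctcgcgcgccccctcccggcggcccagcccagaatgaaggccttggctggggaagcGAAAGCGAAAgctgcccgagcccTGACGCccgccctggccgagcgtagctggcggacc

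HLA-B and HLA-C had the same bases in 226 of 254 aligned columns, or 89.0%. Both carried TGACGC about 100 bases before the start, with 3 CCAAT matches closer to the start and an NF-kB match farther from it. HLA-C held another CCAAT match farther away, and HLA-B held 2 overlapping NF-kB matches. B2M and TAP1 each held 2 overlapping ISRE core matches and 1 NF-kB match. TAP2 held 1 ISRE core and 1 TGACGC match and no match to CCAAT or NF-kB, and no TTCNNNGAA was found in any of these 5 windows. Among all 35116 promoter windows of that length, 32.0% held CCAAT, 7.67% TGACGC, 3.02% the ISRE core, 6.57% TTCNNNGAA and 5.21% the NF-kB consensus. A match describes letters in the reference and is no measurement of binding.

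Per gene length, the heavy chains and B2M were the abundant members and NLRC5 the scarcest. HLA-C stood at 340 and 315 RPKM in KO1 and KO2 and at 284 and 294 RPKM in WT1 and WT2, which put it at rank 131 of 15104 tested genes by mean RPKM. B2M followed at rank 202, HLA-B at 249 and HLA-E at 857. HLA-F, a non-classical heavy chain, lay far lower, at 5.89 and 5.76 RPKM in the KO and 5.77 and 4.59 RPKM in the WT libraries. NLRC5 had the lowest level, 3.30 and 3.41 RPKM in KO1 and KO2 against 2.79 and 2.88 RPKM in WT1 and WT2, at rank 9667. The order of levels was HLA-C, B2M, HLA-B, HLA-E, TAP1, TAP2, ERAP1, HLA-F and NLRC5 in KO1, KO2 and WT2, and TAP2 came before TAP1 in WT1. TAP1 and TAP2 were the only neighbours in that order whose WT values overlapped. Together the members took 0.191% and 0.185% of all counts in KO1 and KO2 and 0.164% and 0.166% in WT1 and WT2.

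**Figure D1:**
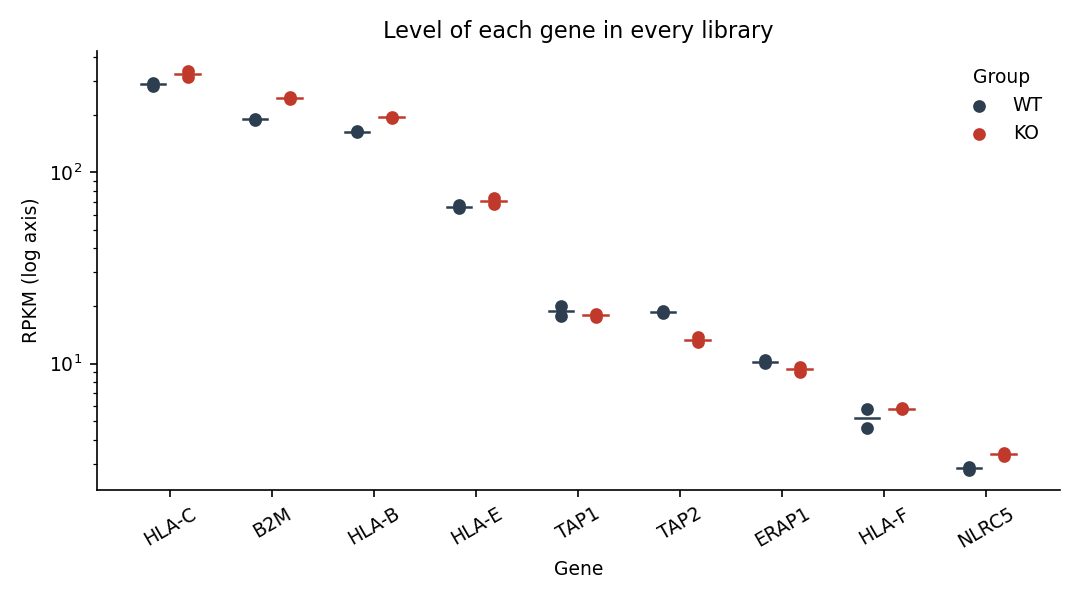
Level of each member in RPKM on a log axis, with 1 point per library (2 KO, 2 WT) and a bar at the group mean. B2M and HLA-B show KO points above both WT points, TAP2 shows the reverse, and the TAP1 points are intermixed.

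Of the 9 members, 5 rose (B2M, HLA-B, HLA-C, HLA-E and NLRC5), 1 fell (TAP2) and 3 did not pass the test (HLA-F, TAP1 and ERAP1) at the threshold of 0.05 on the adjusted p. In the whole table, 20.4% of genes were higher and 19.1% lower in KO cells, and 39.5% were called in either direction. Both KO libraries lay above both WT libraries for 6 members, against 34.1% of all genes, and below them for 1, against 34% of all genes. Groups that did not overlap, in either direction, were thus seen for 7 of the 9 members and for 68.1% of all genes. The rises were small. The folds of KO over WT among the 5 ran from 1.13 for HLA-E to 1.35 for B2M, and TAP2 stood at 0.752 of its WT level. With the thresholds of the study's methods, an unadjusted p under 0.05 and a minimum fold, B2M alone passed, where 17% of all genes were higher and 12.2% lower.

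B2M, the light chain shared by all class I molecules, showed the largest rise among the 9. It lies on chromosome 15 from 44711487 to 44718877 on the plus strand (ENSG00000166710, GENCODE release 29 on GRCh38, as for all positions of genes given here). Its level was 589 and 574 CPM in KO1 and KO2 and 428 and 431 CPM in WT1 and WT2. The groups were well apart, at 582 ± 10.0 CPM in KO and 429 ± 2.60 CPM in WT cells (SD, n = 2). The log2 fold change was 0.44 (SE 0.051, edgeR adjusted p = 9.73e-09), and it stayed between 0.37 and 0.54 and past the threshold in each of the 14 alternatives run. The 1 transcript of B2M that was checked (B2M-201, 732 nt) shared no stretch of 50 bases, the read length, with a transcript of another gene. The length used for B2M in RPKM was 2329 nt, so part of the counted gene was not checked.

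HLA-B and HLA-C, the classical heavy chains among the members, rose with smaller folds than B2M, a difference that was not tested. HLA-B (ENSG00000234745, chromosome 6, 31269491 to 31357188, minus strand) was at 309 and 306 CPM in KO1 and KO2 and at 245 and 248 CPM in WT1 and WT2. The KO mean of 308 ± 2.18 CPM exceeded the WT mean of 247 ± 1.98 CPM (SD, n = 2), with a log2 fold change of 0.32 (SE 0.055, edgeR adjusted p = 1.17e-05). HLA-C (ENSG00000204525, chromosome 6, 31268749 to 31272130, minus strand) was at 655 and 606 CPM in KO1 and KO2 and at 521 and 539 CPM in WT1 and WT2. Its groups did not overlap either, with a log2 fold change of 0.25 (SE 0.052, edgeR adjusted p = 1.82e-04). Neither rise held once the libraries were corrected for GC content and gene length, where HLA-B was at a log2 fold change of 0.03 and HLA-C at -0.09. Of the stretches of 50 bases in the longest transcripts, 2.54% for HLA-B and 6.79% for HLA-C also occur in other genes of the family, and the annotated spans of both genes overlap, so the split of reads between paralogs is uncertain.

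HLA-E and HLA-F are non-classical heavy chains, HLA-E being the ligand of the inhibitory receptor CD94-NKG2A on natural killer cells. HLA-E (ENSG00000204592, chromosome 6, 30489467 to 30494205, plus strand) was at 196 and 183 CPM in KO1 and KO2 and at 172 and 164 CPM in WT1 and WT2. The groups were separate by a narrow margin, and the log2 fold change was 0.17 (SE 0.061, edgeR adjusted p = 0.0242). That call was lost with DESeq2, with scaling by library totals, with limma on RPKM, with the GC and length correction (0.01) and without KO1, WT1 or WT2, where the log2 fold change ran from 0.12 to 0.21. HLA-F (ENSG00000204642, chromosome 6, 29722775 to 29738528, plus strand) was at 9.80 and 9.56 CPM in KO1 and KO2 and at 9.15 and 7.25 CPM in WT1 and WT2. Its WT libraries differed from each other by more than WT1 did from the KO libraries. The log2 fold change of HLA-F, 0.24 (SE 0.19, edgeR adjusted p = 0.352), did not pass the test. It was 0.42 without WT1 and 0.08 without WT2, and turned to -0.03 with the GC and length correction.

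Relative to B2M, heavy chain mRNA was lower in KO cells. The summed RPKM of HLA-B, HLA-C, HLA-E and HLA-F was 614 and 583 in KO1 and KO2 against 519 and 528 in WT1 and WT2. Divided by B2M in RPKM, the sum came to 2.49 and 2.42 in KO1 and KO2 and to 2.77 and 2.78 in WT1 and WT2. The ratio was thus 2.45 ± 0.0526 in KO and 2.77 ± 0.00912 in WT cells (SD, n = 2), and its groups did not overlap. With 2 libraries a group an exact permutation test of this ratio could not reach a p of 0.05, the smallest two-sided p it allows being 0.333, and none was run. The same order held for HLA-E alone, whose ratio to B2M was 0.298 and 0.285 in KO1 and KO2 and 0.361 and 0.341 in WT1 and WT2.

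Of the chains of the peptide transporter TAP2 fell and TAP1 did not pass the test, and the difference between them was not tested. TAP2 (ENSG00000204267, chromosome 6, 32821833 to 32838780, minus strand) was at 75.3 and 79.9 CPM in KO1 and KO2 and at 105 and 101 CPM in WT1 and WT2. Both KO libraries lay below both WT libraries, and TAP2 fell by 0.41 on the log2 scale (SE 0.072, edgeR adjusted p = 1.56e-05). With the GC and length correction the log2 fold change was again -0.41. TAP1 (ENSG00000168394, chromosome 6, 32845209 to 32853978, minus strand) was at 53.1 and 55.3 CPM in KO1 and KO2 and at 51.1 and 57.8 CPM in WT1 and WT2, with the KO values inside the WT range. Its log2 fold change was -0.0048 (SE 0.089, edgeR adjusted p = 0.975), and -0.18 with the GC and length correction, short of the threshold. In RPKM, TAP1 was 1.35 and 1.33 times TAP2 in KO1 and KO2, and 0.937 and 1.09 times TAP2 in WT1 and WT2. In GENCODE, 35.8% of the 50-base stretches of TAP2 also occur in a transcript named AL669918.1, and TAP1 lies within the span of PSMB9 on the other strand. Whether counting used strand is not given in the sources used here.

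ERAP1, the aminopeptidase that trims peptides in the endoplasmic reticulum, did not pass the test. It lies on chromosome 5 from 96760810 to 96808100 on the minus strand (ENSG00000164307). Its level was 51.1 and 54.2 CPM in KO1 and KO2 and 55.9 and 53.7 CPM in WT1 and WT2, and the groups overlapped. In RPKM, which carry no TMM factor, they did not, at 9.07 and 9.65 in the KO against 10.4 and 10.0 in the WT libraries. The log2 fold change was -0.06 (SE 0.087, edgeR adjusted p = 0.633) and turned to 0.15 with the GC and length correction. ERAP1 overlaps CAST on the other strand.

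NLRC5, the class I transactivator, was called higher, but close to the threshold. It lies on chromosome 16 from 56989485 to 57083531 on the plus strand (ENSG00000140853). Its level was 23.3 and 24.0 CPM in KO1 and KO2 and 18.8 and 19.3 CPM in WT1 and WT2. The groups did not overlap, and the log2 fold change was 0.31 (SE 0.13, edgeR adjusted p = 0.0457). The direction held in all 14 alternatives and the call in 2 of them, with adjusted p between 0.0434 and 0.308 over the alternatives, 0.0533 with a replicate block and at least 0.0785 with any library left out.

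**Figure D2:**
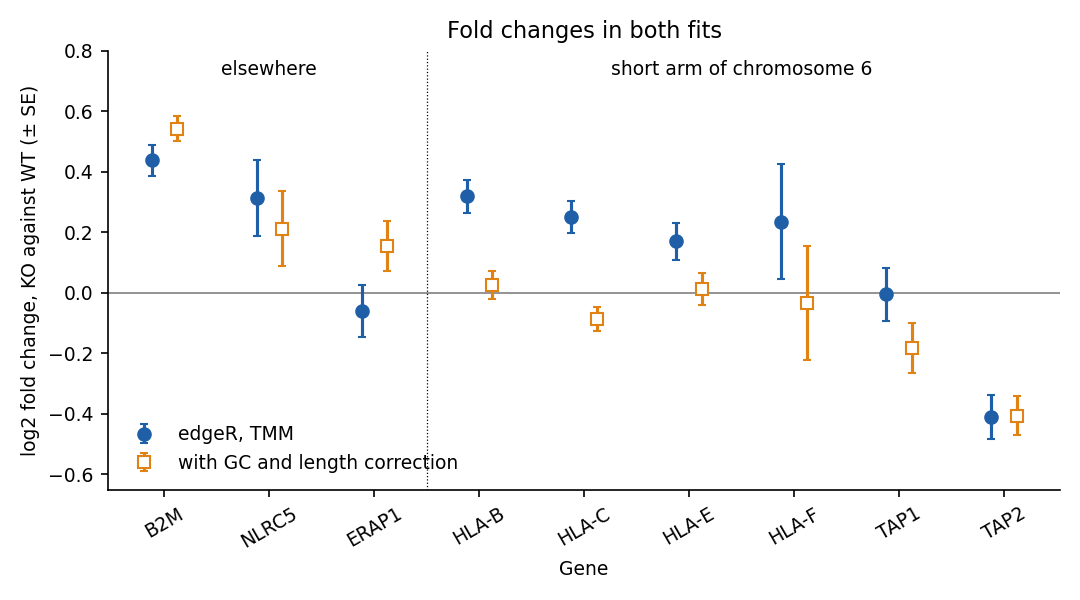
Log2 fold change of KO against WT for each member (points, bars of 1 SE, 2 libraries a group), from edgeR with TMM scaling (filled circles) and with a correction for GC content and length (open squares). B2M and TAP2 keep their size in both, whereas HLA-B, HLA-C and HLA-E move to values near 0 with the correction.

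Fold changes in these libraries moved with base composition and length, and the members lie at different points of that trend. The 11059 genes above 2 in average log2 CPM were cut into 10 bins of equal size. The median log2 fold change rose from -0.22 in the bin of lowest GC content to 0.30 in that of the highest, and by length it went from 0.22 in the bin of the shortest genes to -0.21 in that of the longest. HLA-C has a GC content of 62.7% and HLA-B of 59.0%, against a median of 48.2% over the genes tested, and HLA-F, NLRC5, TAP1 and HLA-E lie between 54.8% and 58.0%. B2M, at 40.6%, rose while genes of like GC content tended to be lower in KO cells. TAP2, at 49.1%, fell while genes of like GC content had a median near 0. After the correction, which called 16.5% of genes higher and 17.8% lower, 1 member was higher (B2M, log2 fold change 0.54) and 1 was lower (TAP2).

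**Figure D3:**
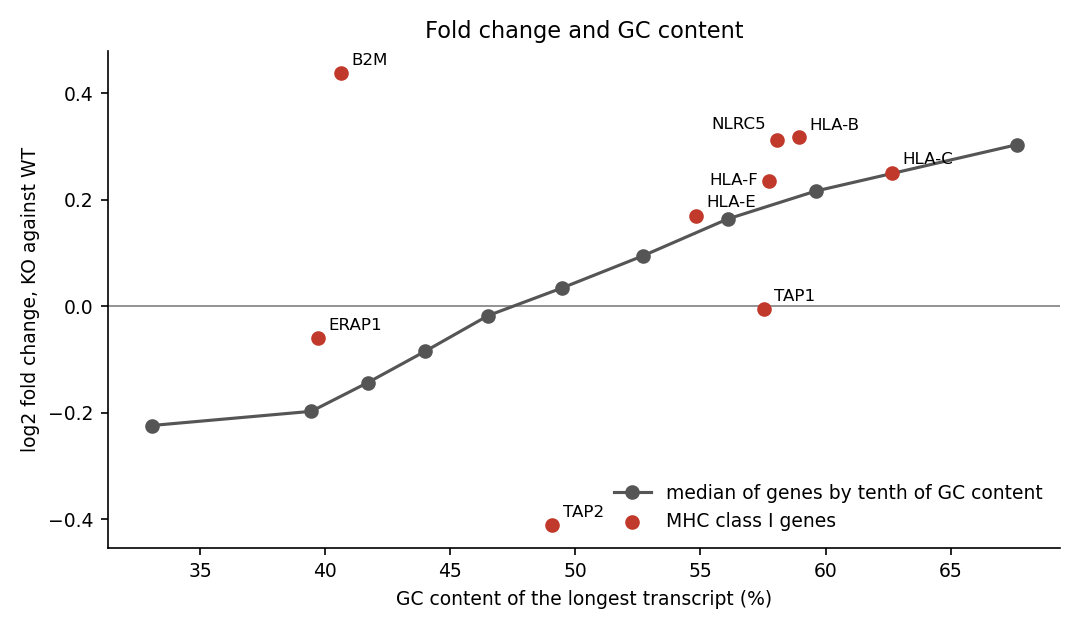
Log2 fold change of KO against WT plotted against GC content of the longest transcript in percent. Grey points joined by a line are medians of 10 bins of genes by GC content and run from -0.22 to 0.30, and red points are the 9 members, with B2M above and TAP2 below that line.

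Members on the short arm of chromosome 6 were set against those elsewhere, since the rest of the arm had a median below 0. Among the 6 members on the arm 3 rose and 1 fell, with a median log2 fold change of 0.20. Among the 3 elsewhere 2 rose, with a median of 0.31. The other 411 tested genes of the arm had a median of -0.27, with 141 (34.3%) lower and 20 (4.87%) higher, while of all genes 19.1% were lower and 20.4% higher, with a median of -0.0042. With the GC and length correction the 6 members on the arm had a median of -0.06, the 3 elsewhere 0.21 and the other genes of the arm -0.32. Of the members on the arm 0 were then higher and 1 lower, and of those elsewhere 1 was higher and 0 lower. Of the other genes of the arm 184 (44.8%) were lower and 11 (2.68%) higher, against 17.8% and 16.5% of all genes. These are descriptions of few genes, and no test was made between them.

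Within the arm the heavy chains stood in the upper part of the range of log2 fold changes and TAP2 in the lower part. Only 38 of the 411 other genes of the arm had a higher log2 fold change than HLA-B, 47 than HLA-C, 52 than HLA-F and 66 than HLA-E. For TAP1 the number was 107 and for TAP2 272. With the GC and length correction these numbers were 63 for HLA-B, 97 for HLA-C, 80 for HLA-F, 66 for HLA-E, 126 for TAP1 and 252 for TAP2. The 73 tested genes within 1 Mb of HLA-B had a median of -0.24, with 26 lower and 3 higher, and the 53 around TAP2 had a median of -0.20, with 17 lower and 5 higher. TNF, a cytokine gene between these loci that the study names, was at 1.52 and 1.10 CPM in KO1 and KO2 and at 8.51 and 9.62 CPM in WT1 and WT2, and fell by 2.78 on the log2 scale (SE 0.29, edgeR adjusted p = 7.21e-10). Elsewhere, the 25 genes around B2M had a median of 0.13, with 9 higher and 2 lower, the 28 around NLRC5 had -0.09 and the 9 around ERAP1 had -0.35. In windows of 10 Mb along the arm the medians ran from -0.45 to -0.14, all below that of all genes.

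**Figure D4:**
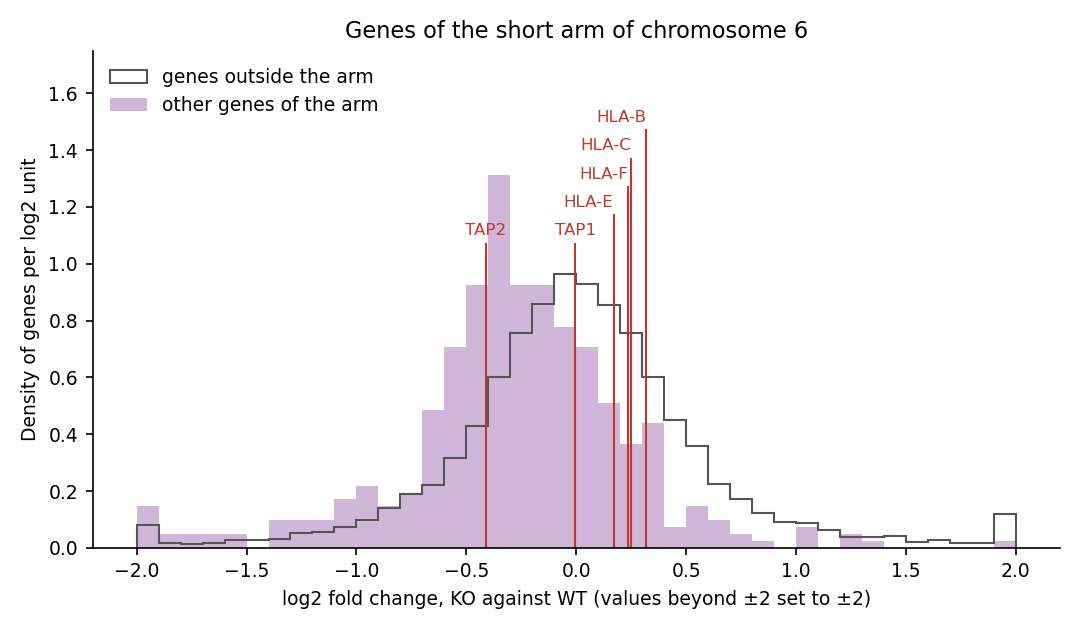
Distribution of log2 fold changes of KO against WT, as density of genes per log2 unit, for the other 411 tested genes of the short arm of chromosome 6 (filled) and for genes outside it (outline), with the 6 members on the arm as red lines. The bulk of the arm lies left of 0 and the 4 heavy chains lie right of it.

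Around the 9 members, 9 lists of pathway genes gave 99 tested genes, of which 24 (24.2%) were lower and 23 (23.2%) higher, against 19.1% and 20.4% of all genes, with a median log2 fold change of -0.05. In peptide loading and trimming 7 of 12 tested genes (58.3%, against 19.1% of all genes) were lower and 2 higher, with a median of -0.21. With the GC and length correction 4 (33.3%, against 17.8% of all genes) were lower and the median was -0.05. TAPBP (tapasin, the bridge between TAP and the heavy chain), also on the short arm of chromosome 6, was at 166 and 169 CPM in KO1 and KO2 and at 225 and 238 CPM in WT1 and WT2. It fell by 0.47 on the log2 scale (edgeR adjusted p = 3.96e-08). The aminopeptidases LNPEP (log2 fold change -0.41) and ERAP2 (-0.35) and the hydrolase BLMH (-0.42) also fell, while the tapasin relative TAPBPL (0.41) and the cytosolic peptidase THOP1 (0.38) rose. Of the chaperones, named after their values were seen, calnexin (CANX) fell with a log2 fold change of -0.34, and calreticulin (CALR, 0.02) and PDIA3 (-0.05) did not pass the test. The 4 lower with the correction were TAPBP (-0.62), BLMH (-0.49), CANX (-0.18) and CALR (-0.17), while LNPEP (-0.07), ERAP2 (-0.14), TAPBPL (0.19) and THOP1 (0.10) no longer passed. BLMH lost its call without WT1 (-0.23), ERAP2 with DESeq2 and without any one library, and TAPBPL with DESeq2 and without KO2, WT1 or WT2.

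Proteasome subunits showed small values. Of the 5 immunoproteasome genes, the catalytic subunit PSMB9 (log2 fold change 0.31) and the activator subunit PSME1 (0.30) rose, and PSMB8 (-0.19), PSMB10 (-0.15) and PSME2 (0.11) did not pass the test. Of the constitutive catalytic subunits, PSMB6 (0.20) and PSMB7 (0.20) rose and PSMB5 (0.08) did not pass, where 20.4% of all genes were higher and 19.1% lower. With the GC and length correction PSMB9 was at 0.28, PSME1 at 0.05, PSMB6 at -0.11 and PSMB7 at -0.03, all short of the threshold, while PSMB8 (-0.43) and PSMB5 (-0.14) were lower, as were 17.8% of all genes with that correction, and 16.5% were higher. PSMB6, PSMB7 and PSMB9 were not called with scaling by library totals or without WT1 either, nor PSMB9 with DESeq2 or without KO1. PSMB8 was lower with library totals as well, and PSME2 was higher without KO2 (0.27) and at -0.06 without KO1. PSMB9 shares its locus with TAP1 on the other strand.

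Of 16 tested genes of transcription of class I genes 3 rose and 3 fell, 18.8% in each direction, against 20.4% and 19.1% of all genes. The median was -0.05. This balance depended on the scaling. With library totals 7 were lower (43.8%, against 23.9% of all genes) and 2 higher (12.5%, against 16.6%). With the GC and length correction 4 were lower (25%, against 17.8%) and 2 higher (12.5%, against 16.5%). RFXANK (log2 fold change 0.40), a subunit of the RFX complex with which NLRC5 works, RELA (0.38), the NF-kB subunit, and IRF1 (0.25), an interferon regulatory factor, rose. NFYA (-0.37), of the NF-Y complex, and EZH2 (-0.23), a histone methyltransferase, were among those that fell. Of 11 interferon receptor and signalling genes 3 fell (27.3%, against 19.1% of all genes) and 2 rose (18.2%, against 20.4%). IFNGR1 (-0.61), a chain of the interferon gamma receptor, and the negative regulators USP18 (-0.60) and PTPN2 (-0.46) fell. SOCS3 (0.70), an inhibitor of cytokine receptors, and the kinase TYK2 (0.18) rose. JAK1 (-0.15) did not pass the test. RFXANK (0.06), EZH2 (-0.11) and TYK2 (-0.02) were no longer called with the GC and length correction, and RELA (0.21) and PTPN2 (-0.29) were called at smaller values. IRF1, EZH2 and TYK2 were not called with DESeq2. Calls were also lost without WT2 for RFXANK, without KO2 or WT1 for NFYA, without KO1 or WT2 for IRF1, without KO1, KO2 or WT1 for EZH2 (-0.14 without WT1) and without KO2, WT1 or WT2 for TYK2. JAK1 was lower with library totals (-0.22).

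Of 20 tested genes of the interferon response 5 rose, 3 fell and 12 did not pass, where 20.4% of all genes were higher and 19.1% lower, with a median of -0.02. ISG15, a ubiquitin-like protein, was at 205 and 185 CPM in KO1 and KO2 and at 86.5 and 93.2 CPM in WT1 and WT2, a log2 fold change of 1.12 (edgeR adjusted p = 4.35e-16). CXCL10 (1.68), a T cell chemokine present at 4 to 24 counts a library, IFI6 (0.82), OASL (0.55) and IFI44 (0.54) rose as well, and the guanylate-binding protein gene GBP2 (-0.91) fell. Under the GC and length correction 6 were higher (against 16.5% of all genes) and 4 lower (against 17.8%), with ISG15 at 0.63 and IFI6 at 0.48. The calls of CXCL10 and GBP2 were lost with DESeq2, that of CXCL10 also without any one library (1.34 to 2.17) and that of GBP2 without KO1 (-0.47) or WT2. Of 12 MHC class II genes 11 were listed and 4 tested, of which 2 fell, again against 19.1% of all genes. HLA-DQB1, a class II chain, was at 2.33 and 1.40 CPM in KO1 and KO2 and at 7.80 and 6.89 CPM in WT1 and WT2, and fell by 1.96 on the log2 scale. CD74, the invariant chain, was at 39.5 and 38.6 CPM in KO1 and KO2 and at 75.6 and 74.7 CPM in WT1 and WT2, and fell by 0.94. HLA-DMA (-1.01) and HLA-DOB (-0.90) did not pass the test.

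Other class I and class I-like chains, which take part in lipid presentation, iron uptake, IgG transport and recognition by natural killer cells, had 4 genes lower (26.7%, against 19.1% of all genes) and 2 higher (13.3%, against 20.4%) of 15 tested, with a median of 0.02 that was -0.05 with library totals and -0.13 with the GC and length correction. CD1D (log2 fold change 2.65), which presents lipids, rose from 6 and 2 counts in WT1 and WT2 to 35 and 26 counts in KO1 and KO2, and PROCR (0.81), the endothelial protein C receptor, rose. HFE (-0.90), FCGRT (-0.68), MICB (-0.52), a stress ligand of NKG2D, and MR1 (-0.27), which presents vitamin B metabolites, fell. Among 13 genes of retrieval and turnover of class I chains 5 rose (38.5%, against 20.4% of all genes) and 2 fell (15.4%, against 19.1%), with a median of 0.19. Corrected for GC content and length, 3 were higher (23.1%, against 16.5%) and 4 lower (30.8%, against 17.8%), and the median was 0.01. SEC61B (0.53), BCAP31 (0.40), HM13 (0.30), the signal peptide peptidase, and SYVN1 (0.22), an E3 ligase, rose, and SEL1L (-0.51), the partner of SYVN1, and SEC61A1 (-0.28) fell. That correction left SEC61B at 0.27, BCAP31 at 0.12, HM13 at 0.19 and SEL1L at -0.25, all still called. MR1 (-0.13) and SYVN1 (0.10) lost their call with the GC and length correction, with DESeq2 and without several single libraries (KO1, WT1 or WT2 for MR1, at -0.15 without KO1, and KO2, WT1 or WT2 for SYVN1), and FCGRT lost it without WT1 (-0.49).

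**Figure D5:**
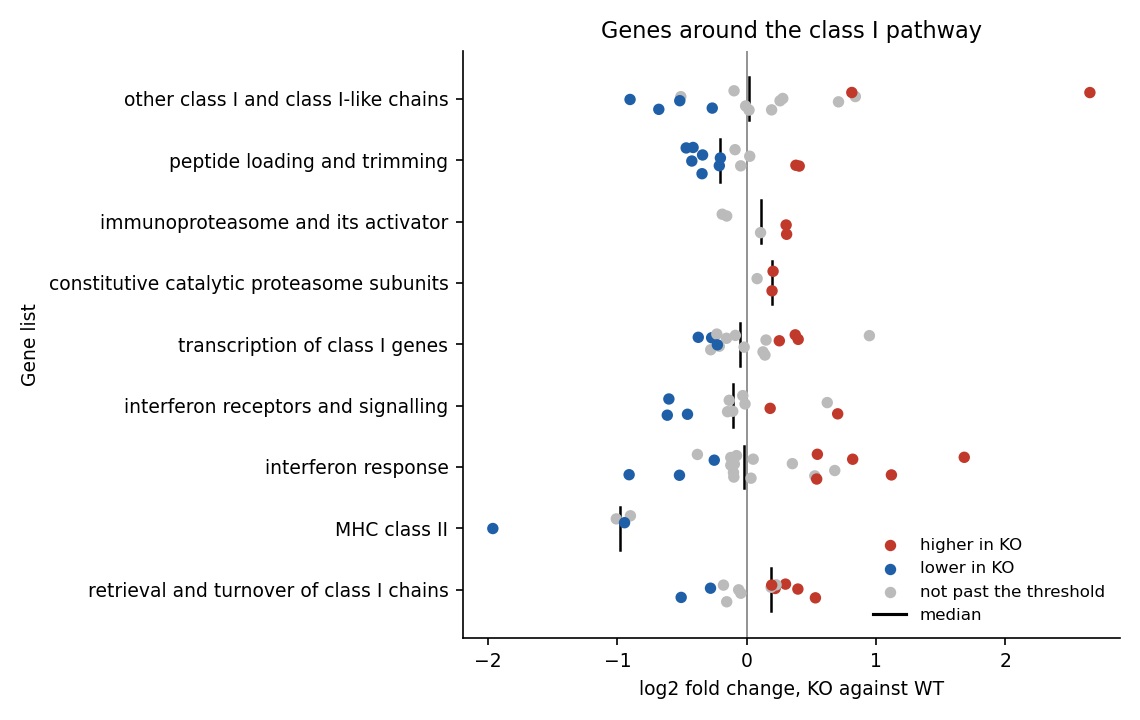
Log2 fold change of KO against WT for the 99 tested genes of 9 lists around the class I pathway, with 1 point per gene, coloured by edgeR call, and a black bar at each list's median. Medians run from -0.98 for the 4 class II genes to 0.20 for the 3 constitutive proteasome subunits.

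The genes whose pattern over the 4 libraries was nearest to the mean of the 6 members on the short arm of chromosome 6 were ANAPC5, BCR, UAP1, SLC38A10 and HYOU1. Likeness was the Euclidean distance between centred log2 CPM values, over 6085 genes with a mean log2 CPM of at least 5, and the 5 distances were between 0.00588 and 0.0158. Their log2 fold changes, from 0.09 to 0.10, were as small as the mean pattern of the members, which holds TAP2 as well as the heavy chains.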

How the data were processed

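RNA of 2 KO and 2 WT cultures of HN12 cells was sequenced as 50-nt reads. The authors deposited raw read counts for 26726 genes and a table of RPKM values. The RPKM equal count over gene length and library total, with implied lengths that vary by at most 1.8e-05% between libraries. Per the labels, the submitters' processing notes name CASAVA, STAR 2.5, HTSeq, edgeR 3.16.5, DESeq2 2 and hg19. Their roles, the annotation and the use of strand are not given in the sources used here.

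Counts were tested over the whole table with edgeR 4.0.16 in R 4.3.3 (filterByExpr, TMM, glmQLFit and glmQLFTest, Benjamini-Hochberg), which kept 15104 genes at a biological coefficient of variation of 5.88%. TMM factors were 0.975, 0.978, 1.02 and 1.03 for KO1, KO2, WT1 and WT2. Standard errors were derived from each gene's fold change and F value. The methods of the study name another test of the DESeq package, with no pairing term. With 3 counts, a gene stood at 0.158 to 0.221 CPM, and depth limits mainly scarce genes. Replicates differed by more than sampling noise (chi-square per degree of freedom 4.2 in KO and 3.36 in WT).

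Gene positions, GC content and shared stretches were looked up by Ensembl identifier in GENCODE release 29 on GRCh38, with a position for 25550 genes and for 14684 (97.2%) of those tested. No coordinate of the files was used. The short arm of chromosome 6 was taken as genes ending before 60 Mb. The correction fitted splines with 4 degrees of freedom on GC content and length in each library. Promoters came from RefSeq tables on GRCh38.p14.

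The members, lists and rules were chosen with earlier results of these data known. All members were named, with up to 6 genes of each list (those called with the largest change, then the most abundant not called). ATAD3A, its family member ATAD3B, TNF and the 5 genes of nearest pattern were also named. Alternatives were DESeq2 1.42.0, DESeq2 size factors in edgeR, library totals, no filter, a minimum of 10 counts in each library, a replicate block, the GC and length correction, limma 3.58.1 on log2(RPKM + 1) and log2(RPKM + 0.1), the thresholds of the study and leaving out each library. On counts simulated from the mean levels and library sizes of this comparison, with 200 genes changed 2-fold among 15049, edgeR recovered 191 (95.5%). It made 8 false calls. The simulation had a single dispersion for all genes and no trend with GC content or length. Its changes were also larger than that of any member. It checks that the fits run as intended, and gives no rate of recovery or false calls for the members.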

Additional observations from a re-analysis of the deposited data

How the results depend on the processing

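Over the 14 alternatives B2M stayed called at a log2 fold change of 0.37 to 0.54. TAP2 (-0.48 to -0.36) missed only the fold threshold of the study (-0.41). HLA-B (0.32) and HLA-C (0.25) missed that threshold too. The cause of the other changes was not tested. With the GC and length correction HLA-B (0.025), HLA-E (0.012) and NLRC5 (0.21) lost their call, and HLA-C (-0.086), HLA-F (-0.034), ERAP1 (0.15), PSMB5 (-0.14), PSMB6 (-0.11), PSMB7 (-0.032), TYK2 (-0.022), PDIA3 (0.046) and CALR (-0.17) turned sign, PSMB5 and CALR being called lower there. HLA-E was also not called with DESeq2 (0.17), library totals (0.10), limma on log2(RPKM + 1) (0.10) or log2(RPKM + 0.1) (0.10) and the thresholds of the study (0.17). NLRC5 was not called with DESeq2 (0.31), library totals (0.24), no filter (0.32), limma on log2(RPKM + 1) (0.18) or log2(RPKM + 0.1) (0.24) and the thresholds of the study (0.31). TAP1, near 0, was at 0.0067 with no filter and at 0.00022 with at least 10 counts in every library. CALR turned to -0.046 with library totals and with both limma fits.

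Leaving out each library in turn, with a lone library assumed to vary like the other group, gave log2 fold changes of 0.12 to 0.23 for HLA-E, -0.088 to 0.084 for TAP1, -0.056 (without KO1) to 0.27 for PSME2 and 0.30 to 0.34 for NLRC5, and 3 to 4 members higher. The median of the members on the short arm of chromosome 6 was then 0.11 to 0.25 and that of the other genes of the arm -0.28 to -0.24. With the replicate number as a block NLRC5 was at 0.31 (edgeR adjusted p = 0.0533), and EZH2 and SYVN1 also lost their call. The libraries share only a number, since deviations of same-numbered libraries correlated at -0.06 across 11106 genes.

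Higher members numbered 3 with DESeq2, library totals and both limma fits, and 1 with the GC and length correction or the thresholds of the study. Of all genes, 15.8% were higher with DESeq2, 16.6% with library totals, 16.5% with the correction and 17% with the thresholds of the study. With those thresholds 0 members (TAP2 stood at a fold of 0.752), 1847 of all genes and 13 list genes were lower. List genes higher numbered 15 with library totals, both limma fits and the thresholds of the study, and 14 with the correction, and the median over the lists was -0.12 with library totals, -0.11 with log2(RPKM + 1) and -0.12 with log2(RPKM + 0.1). The members on the arm had a median of -0.060 with the correction and 0.12 with log2(RPKM + 1), and those elsewhere 0.24 with library totals, 0.21 with the correction, 0.18 with log2(RPKM + 1) and 0.24 with log2(RPKM + 0.1). Other genes of the arm called higher numbered 13 with DESeq2 and 11 with the correction and both limma fits, and the median of the arm was -0.34 with library totals, -0.32 with the correction, -0.25 with log2(RPKM + 1) and -0.34 with log2(RPKM + 0.1). Library totals shifted the median of all genes to -0.07. Over 739 comparisons of the 53 other named genes 618 held, 103 lost their call, 8 gained one and 10 turned sign.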

Other observations

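The squamous markers did not move as 1 group. Of 10 tested, 7 rose and 3 fell, where 20.4% of all genes were higher and 19.1% lower. KRT5, a basal keratin, was at 949 and 941 RPKM in KO1 and KO2 and at 162 and 158 RPKM in WT1 and WT2, a log2 fold change of 2.63 (edgeR adjusted p = 9.11e-32). Its partner KRT14 (2.20) and the stress keratins KRT6A (2.76), KRT16 (1.50) and KRT17 (0.94) rose as well, as did SFN (0.39) and PKP1 (0.88). TP63 (-0.28), the transcription factor of basal epithelium, and the adhesion genes CDH1 (-0.24) and EPCAM (-0.34) fell. Corrected for GC content and length, SFN was at -0.0027 and not called, and TP63 was at -0.13. The call of CDH1 was lost without WT replicate 1 (edgeR adjusted p = 0.0705). The part of this difference between the groups in the class I values was not tested.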
